A study of Caenorhabditis elegans with 11 samples.

Results

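The regions described here are the stretches of the Caenorhabditis elegans genome that the authors of a Pol II occupancy table marked as misanotated (spelled as in the table). Of the 100257 bins of 1 kb in the table, 506 (0.505%) carry the mark, on all 6 chromosomes. Marked bins that follow each other without a gap were joined, which gave 204 runs. The sources used here do not say how the mark was set, so it may rest on libraries of this kind. None of the 506 bins carries GRTS or GRH, the table's other marks, and 99370 bins carry no mark.

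Pol II was measured by chromatin immunoprecipitation and sequencing (ChIP-seq) in young adult hermaphrodites fed E. coli OP50. There was 1 library for each of 8 genotypes: the wild-type strain N2, hrde-1(tm1200), set-32(red11), the double mutant met-2(n4256) set-25(n5021), and 4 strains that combine these alleles. The combinations were set-32 hrde-1, the met-2 set-25 pair with set-32 (called the set-32 triple mutant below), the same pair with hrde-1 (the hrde-1 triple mutant), and all of the alleles at once (the quadruple mutant). Each of the 3 losses was thus carried by 4 libraries and absent from 4. Cultures per library are not stated in the labels, and p-values below measure only how libraries scatter about a model of the 3 losses, which may be technical in part.

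Pol II ChIP-seq counts DNA fragments bound by RNA polymerase II, and its signal over a bin rises with the polymerase engaged there. HRDE-1 is a germline Argonaute that carries small RNAs to nascent transcripts in nuclear RNA interference. The enzymes MET-2 and SET-25 are methyltransferases of histone H3 lysine 9, a residue methylated in silent chromatin, and SET-32 is a protein with a SET domain that acts in nuclear RNAi. The mark's name speaks of doubtful annotation. Where a sequence occurs at several places in a genome, an aligner may place its reads at one of them or divide them, so a value there belongs to a sequence rather than to a single place.

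Values are RPKM, reads per kb of bin scaled to library size, and since all bins are 1 kb they give each bin's share of a library's reads. Depth estimated from the step between low values was 3.0 to 6.60 M reads per library. At that depth the median misanotated bin held 34.9 to 193 reads, with 7.20 to 16.9% counting error. The libraries differed in how evenly reads were spread: the 90th percentile of unmarked bins was 3.65 times the 10th in the set-32 triple mutant and 4.24 times in the quadruple mutant, against 7.51 to 25 times in the other 6. The first 2 are called the evenly covered libraries below. The sources used here name no genome build. Positions are those of the deposited table, counted from 1, and no gene is assigned to them.

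Most runs were short. There were 97 runs of a single bin, 37 of 2 bins, 50 of 3 to 5 bins and 20 of 6 or more, and the last group held 153 of the 506 bins. The median run was 2 kb long and the longest 16 kb, on chromosome I from 10204001 to 10220000. Allowing 1 unmarked bin inside a run lowered the number of runs to 186.

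The marked bins lay on every chromosome, with 80 on I, 48 on II, 67 on III, 74 on IV, 132 on V and 105 on X. Chromosome V had the highest share of its bins marked, 0.631%, and II the lowest, 0.314%. With each chromosome cut into 3 equal stretches, the outer stretches held 72.1% of the marked bins and 66.7% of all bins. On chromosome I they held 91.3% of them, on IV 59.5%. Of the 12 chromosome ends, 6 were marked: the first bin of I, II, V and X and the last bin of III and IV.

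Misanotated bins had higher Pol II ChIP-seq values than the genome around them in every library. No input library was used, so what part of these values reflects Pol II binding was not tested. Their median was 15.7 RPKM for N2, 16.2 for hrde-1, 11.5 for set-32 and 22.8 for met-2 set-25. It was 31.8 RPKM for the set-32 triple mutant, 16.2 for set-32 hrde-1, 13.3 for the hrde-1 triple mutant and 32.1 for the quadruple mutant. The evenly covered libraries stood highest and set-32 lowest, a 2.80-fold range. Unmarked bins had medians of 3.62 to 7.13 RPKM, and in each library the median misanotated bin was 2.93 to 4.50 times the unmarked median. The middle of the marked bins fell at the 82.0th percentile of unmarked bins in N2, the 73.9th in set-32 and the 98.0th in the set-32 triple mutant. The level as a multiple of the library's own low bins (the 10th percentile of unmarked bins) varied less between libraries, from 6.89 for the set-32 triple mutant to 11.6 for set-32, a 1.68-fold range in which the order of these libraries turned round.

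**Figure D1:**
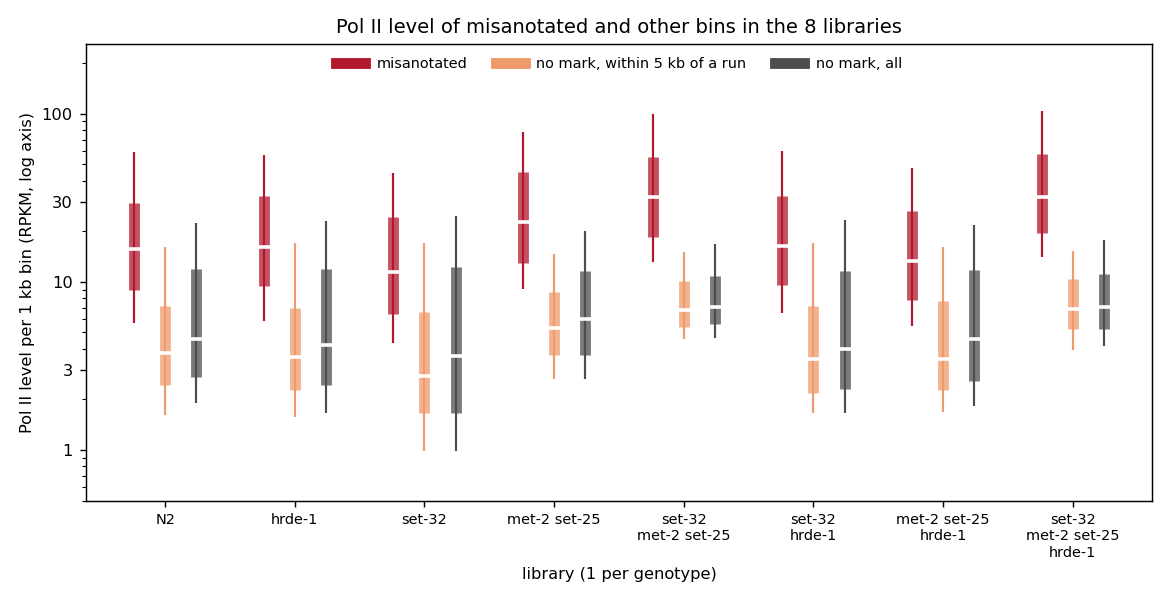
Pol II level in RPKM (log axis) of the 506 misanotated bins, of unmarked bins within 5 kb of a misanotated bin and of all unmarked bins, by library; thin lines run from the 10th to the 90th percentile, thick bars from the 25th to the 75th, and white ticks are medians. The misanotated median lies between 11.5 and 32.1 RPKM, above both other groups in each of the 8 libraries.

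The raised level ended at the edge of the mark. In the 69 runs of 3 kb or more averaging 2 RPKM or more, the median N2 level was 21.1 RPKM in the second bin from the edge, 14.6 in the outermost marked bin and 3.78 in the first unmarked bin outside. From there to 5 kb outside it lay between 3.51 and 4.31 RPKM. The same step was present in the set-32 triple mutant, from 28.4 RPKM in the outermost marked bin to 6.70 outside, and in set-32, from 10.1 to 2.64. The 1685 unmarked bins within 5 kb of a misanotated bin had a median of 3.78 RPKM in N2, below the 4.59 RPKM of all unmarked bins.

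**Figure D2:**
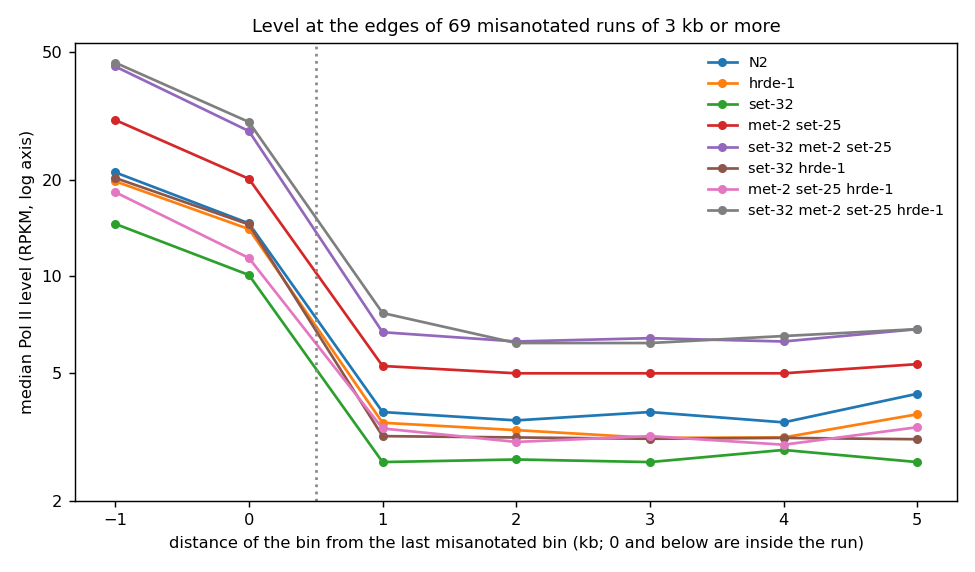
Median Pol II level in RPKM (log axis) against the distance in kb from the outermost misanotated bin, for both edges of 69 runs; 0 is the outermost marked bin, -1 the bin next to it inside the run, and the dotted line is the edge. All 8 libraries step down across the edge, N2 from 14.6 to 3.78 RPKM.

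Misanotated bins also differed among themselves. In N2 the 10th to 90th percentiles ran from 5.71 to 58.9 RPKM, a 10.3-fold span, and the highest bin reached 166 RPKM. In the evenly covered libraries it was 7.67-fold in the set-32 triple mutant and 7.39-fold in the quadruple mutant, where unmarked bins spanned 3.65-fold and 4.24-fold (11.9-fold in N2). Of the 506 bins, 4 had almost no reads: the run at X 5908001 to 5912000 was at 0 in 7 libraries and at 0.17 RPKM for the set-32 triple mutant. It is the only run under the mean of 2 RPKM asked for in the tests, which left 502 bins in 203 runs.

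Most values of these bins were not a whole number of reads, which does not tell how much of the signal came from fractions. Among values of 10 to 60 RPKM, only 18.4 to 28.3% (range over libraries) fell no more than 0.1 read from a whole number in misanotated bins, where evenly spread fractions would give 20%. In unmarked bins the share was 80.5 to 84.3%, and in unmarked bins within 5 kb of the mark 56.6 to 71.2%. GRTS bins gave 47.4 to 71.4% and GRH bins 51.5 to 64.3%. How values came to include fractions of a read is not described in the sources used here.

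A second property the mark does not state is near-equality between bins. Of the 417 misanotated bins averaging 10 RPKM or more, 25 (6.0%) had another bin within 5% of them in all 8 libraries, against 0.274% of unmarked bins, 2.27% of GRTS bins and 1.09% of GRH bins. All 25 had such a partner within 20 kb on the same chromosome, and all 25 had one that was itself misanotated. One group was on chromosome I from 4341001 to 4356000, where 9 of the 15 bins were marked. In these 9 bins N2 ranged only from 62.1 to 65.2 RPKM, set-32 from 51.9 to 55.1 and the set-32 triple mutant from 53.1 to 55.8. Another group lay in the runs at V 17120001 to 17127000 and V 17128001 to 17132000, with 3 such bins in each. These were the runs with the most Pol II signal in N2. The first had 137 RPKM for N2, 146 for hrde-1, 147 for set-32, 190 for met-2 set-25, 187 for the set-32 triple mutant, 220 for set-32 hrde-1, 245 for the hrde-1 triple mutant and 143 for the quadruple mutant. The second followed it closely, with 138 RPKM in N2 and 243 for the hrde-1 triple mutant. Bins of such a group may share reads, and may then not be separate measurements.

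Against N2, and in the deposited scaling (another scaling, below, turned the sign in set-32 and the set-32 triple mutant), the misanotated bins were higher in the met-2 set-25 mutants except the hrde-1 triple mutant, and lower in set-32. With 1 library per genotype these ratios have no replicate check and are given without a test. On the log2(RPKM + 1) scale, where changes of low bins look smaller than they are, the median ratio over the 502 bins was 0.50 for met-2 set-25, 0.98 for the set-32 triple mutant and 1.10 for the quadruple mutant. It was 0.00 for hrde-1, 0.02 for set-32 hrde-1, -0.21 for the hrde-1 triple mutant and -0.43 for set-32. These directions and sizes depend on how libraries are scaled. Centring libraries on their medians gave 0.18 for met-2 set-25, 0.45 for the set-32 triple mutant, 0.55 for the quadruple mutant and -0.16 for set-32. A scaling chosen after the data were seen set libraries to the same 10th percentile of unmarked bins. With it the median turned to 0.44 for set-32 and to -0.23 for the set-32 triple mutant. It was 0.03 for met-2 set-25 and 0.01 for the quadruple mutant.

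The comparison with unmarked bins of like N2 level cannot check that scaling, which moves marked and reference bins alike except through the pseudocount. Each misanotated bin was set against the unmarked bins nearest to it in N2 level. Those reference bins changed by a median log2 ratio of -0.18 for met-2 set-25, -0.32 for the set-32 triple mutant and -0.26 for the quadruple mutant, so they moved opposite to the marked bins. Relative to them, the median misanotated bin was higher by 0.64, 1.22 and 1.22 on the log2 scale, and 482, 486 and 494 of 502 bins stood above their reference. In set-32 the relative median was -0.47, with 98 of 502 bins above their reference. In hrde-1 (0.03, 278 bins above), set-32 hrde-1 (0.09, 314 bins) and the hrde-1 triple mutant (-0.13, 177 bins) the marked bins stayed near their reference. Under the 8 alternatives tried, these relative medians ranged from 1.10 to 1.33 for the set-32 triple mutant, from 1.12 to 1.37 for the quadruple mutant and from -0.54 to -0.39 for set-32. With equal 10th percentiles, a scaling that nearly cancels in this comparison, they were 1.16, 1.18 and -0.50. In hrde-1 the relative median was -0.04 when the reference was matched on the mean of the 8 libraries.

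The gap between marked and unmarked bins widened with the level in N2. For the 145 misanotated bins under 10 RPKM in N2, the median log2 ratio in the set-32 triple mutant was 1.10, against 0.70 for unmarked bins of that class. For the 85 bins of 40 RPKM or more it was 0.75, against -0.75. The counterpart in the quadruple mutant ran from 1.24 against 0.64 to 0.84 against -0.73. In set-32 the marked bins were lower at each level, by -0.32 in the lowest class and -0.45 in the highest, while unmarked bins went from -0.30 to 0.08. Unevenness of coverage moves with this pattern, since set-32 has the widest and these 2 libraries the narrowest spread of unmarked bins, and its part in the result was not tested.

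**Figure D3:**
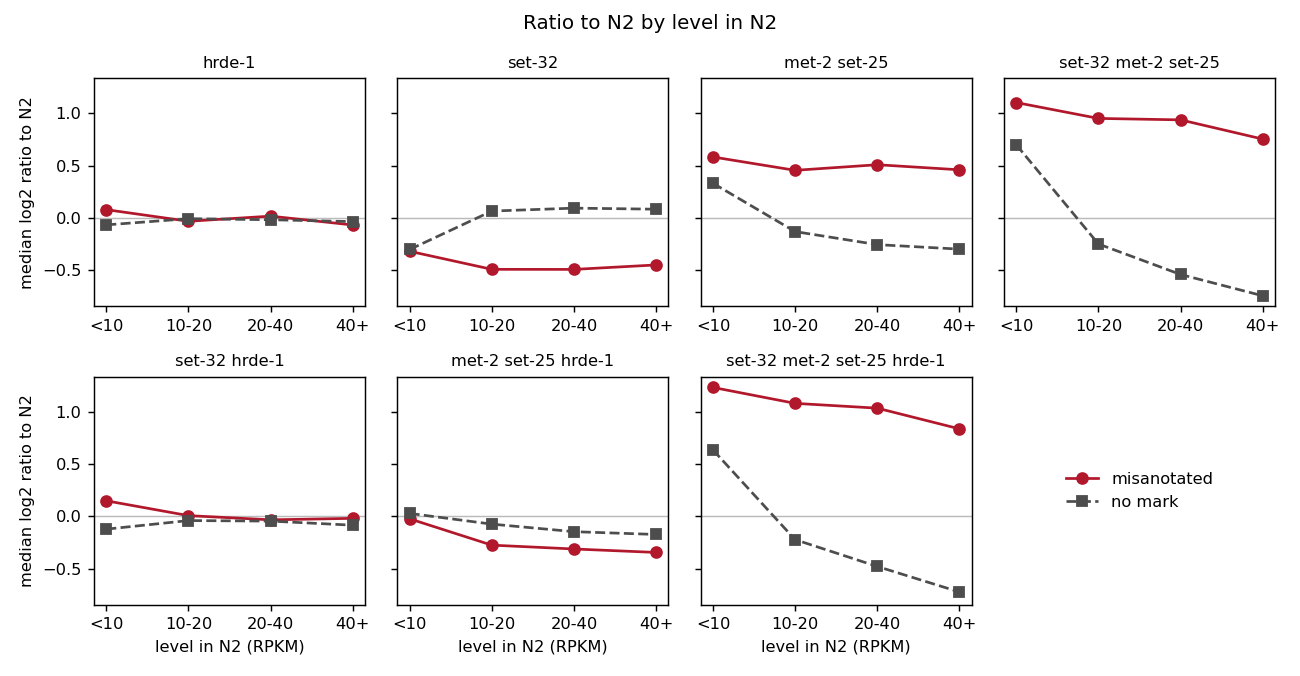
Median log2 ratio to N2, log2((mutant + 1)/(N2 + 1)), against the N2 level class in RPKM, for misanotated bins (red circles) and unmarked bins (grey squares) in each of the 7 mutant libraries. In the set-32 triple mutant the marked bins stay between 0.75 and 1.10 while unmarked bins go from 0.70 to -0.75.

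The excess was seen on each chromosome and stopped at the edge of the mark. Per chromosome the relative median in the set-32 triple mutant lay between 1.16 on II and 1.40 on III, and in set-32 between -0.57 on III and -0.30 on V. Unmarked bins within 5 kb of the mark had relative medians of -0.12 to 0.04 in the 7 mutants. One of the evenly covered libraries held the highest value of the 8 in 436 of the 502 bins (86.9%), against 56.0% of unmarked bins. The lowest value was that of set-32 in 307 (61.2%), against 31.1% of unmarked bins. Among bins of 10 to 40 RPKM in N2, the evenly covered libraries were highest in 88.6% of misanotated and 6.95% of unmarked bins.

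A rule of size, with no test, took the most bins as higher in the evenly covered libraries. It asked for at least a 2-fold difference from N2 on the log2(RPKM + 1) scale and a level of 10 RPKM or more in the larger of the pair. In the set-32 triple mutant it took 234 of 506 misanotated bins as higher (1.25% of all bins) and 3 as lower (1.47% of all bins). In the quadruple mutant it took 306 as higher (1.93% of all bins) and 3 as lower (1.72%), and in met-2 set-25 39 as higher (0.738%) and 0 as lower (0.48%). The other 4 libraries had fewer higher bins. In hrde-1 there were 15 higher (2.96%, against 0.873% of all bins) and 1 lower (0.198%, against 0.911%). In set-32 there were 14 higher (2.77%, against 0.51%) and 11 lower (2.17%, against 1.17%). In set-32 hrde-1 there were 26 higher (5.14%, against 1.21%) and 2 lower (0.395%, against 1.1%). In the hrde-1 triple mutant there were 24 higher (4.74%, against 1.59%) and 17 lower (3.36%, against 1.28%). Misanotated bins reached 10 RPKM in N2 more often, 357 of 506 against 28706 of 99370 unmarked bins. The share of all bins is thus not a background of like level. The 7 comparisons share the N2 library.

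At the level of runs the pattern was broad but not uniform. In the deposited scaling the mean level was above N2 in both evenly covered libraries in 179 of 203 runs and below N2 for set-32 in 169. Unmarked bins had median log2 ratios of the same signs. These were 0.43 for the set-32 triple mutant, 0.36 for the quadruple mutant and -0.17 for set-32. The 24 runs not above N2 in both evenly covered libraries included all 4 marked first bins of chromosomes and 6 runs in the stretch of near-equal bins on chromosome I. The highest library was at most 2-fold above the lowest in 20 runs, more than 2-fold and up to 4-fold in 146, and more than 4-fold in 37, each on the log2(RPKM + 1) scale. The 4 runs beyond 8-fold were II 504001, II 5097001, III 3897001 and V 18719001. Among the longest runs, the 11 kb at I 10266001 to 10277000 changed little, with 41.6 RPKM for N2, 45.1 for hrde-1, 37.3 for set-32, 42.2 for met-2 set-25, 43.3 for the set-32 triple mutant, 30.9 for set-32 hrde-1, 27.5 for the hrde-1 triple mutant and 36.5 for the quadruple mutant. The 10 kb at IV 8572001 to 8582000 showed the common pattern, with 15.6 RPKM for N2, 11.2 for set-32, 35.1 for the set-32 triple mutant and 38.6 for the quadruple mutant. The runs at I 4540001, V 10605001, X 4033001 and X 10361001, of 8 or 9 kb, followed it too: the quadruple mutant was highest in each, at 48.3, 56.0, 15.0 and 25.5 RPKM against 20.6, 22.2, 5.10 and 11.3 in N2.

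**Figure D4:**
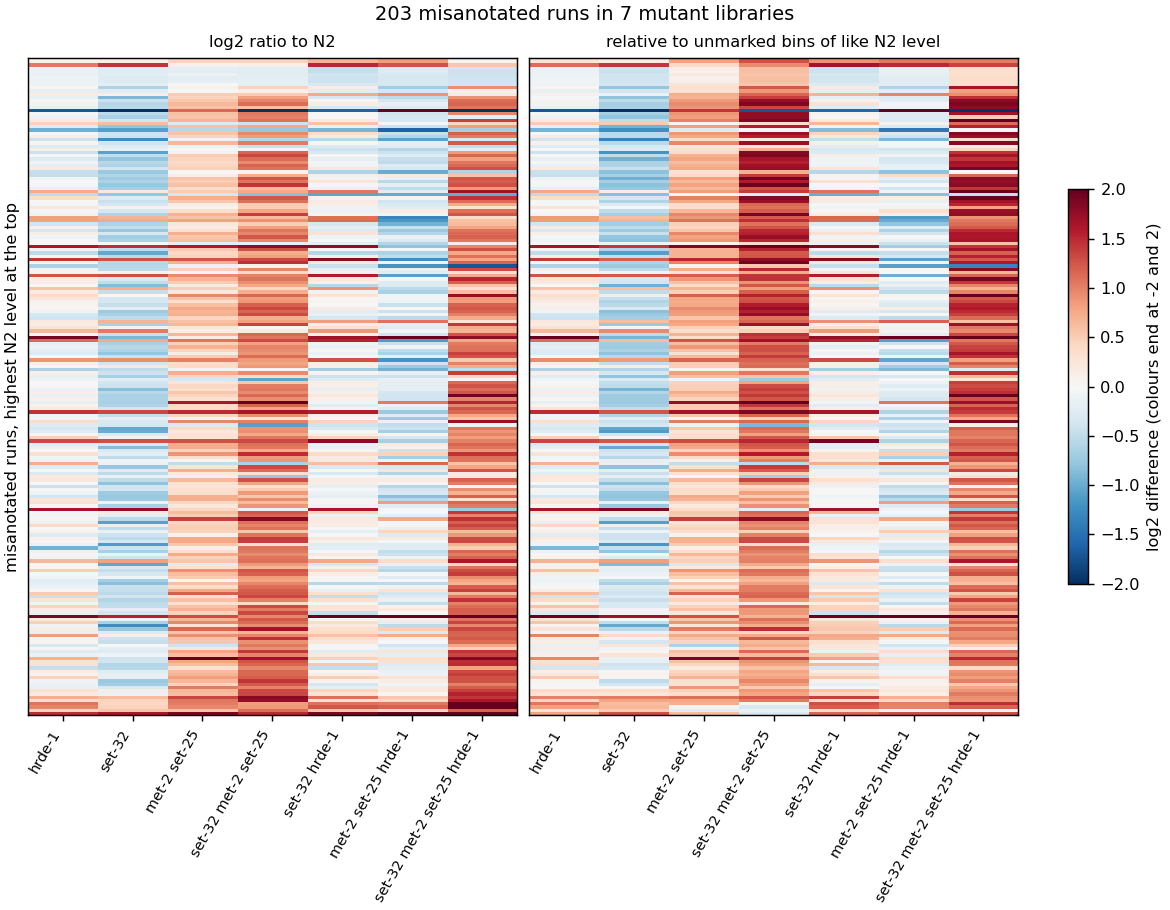
Log2 ratio to N2 (left) and the same relative to unmarked bins of like N2 level (right) for 203 misanotated runs, ordered by N2 level with the highest at the top, in the 7 mutant libraries; red is higher and blue lower. In the deposited scaling (left) both evenly covered libraries are red in most runs (179 of 203 above N2 in both) and set-32 is blue in most (169 below N2). The median log2 ratio over all unmarked bins, not drawn, has the same signs (0.43 for the set-32 triple mutant, 0.36 for the quadruple mutant and -0.17 for set-32).

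The 3 losses were tested per bin with limma on log2(RPKM + 1) in an additive model, 4 libraries with a loss against 4 without, with Benjamini-Hochberg adjustment over the 100027 bins tested. Loss of the met-2 set-25 pair had the most calls: 38 of 502 misanotated bins, in 15 runs, were higher, against 0.318% of all bins, and 1 was lower, against 0.127%. Loss of hrde-1 gave 10 higher bins in 5 runs (0.852% of all bins) and 0 lower (0.08% of all bins), with 6 lower at an unadjusted p under 0.05 (1.2%, against 2.61% of all bins). Loss of set-32 gave 0 higher by limma (0% of all bins), with 68 at an unadjusted p under 0.05 (13.5%, against 2.04% of all bins), and 1 lower (0.001% of all bins).

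The median log2 change of the 502 bins was 0.69 for met-2 set-25, where the median over all bins was 0.40. For set-32 it was 0.33 against 0.07 over all bins, and for hrde-1 -0.04 against -0.04. Relative to the shift of all bins, then, the misanotated median was 0.29 higher for met-2 set-25 and 0.26 higher for set-32. Centring libraries on their medians cannot check these differences from all bins, since it moves every bin of a library alike. It left them at 0.29 and 0.26, from misanotated medians of 0.20 and 0.23 and all-bin medians of -0.09 and -0.03. Quantile normalization gave differences of 0.85 and 0.52. Raising the filter on the mean to 5 RPKM gave 0.75 and 0.37, with all-bin medians of -0.05 and -0.04. With equal 10th percentiles the differences were 0.16 and 0.23, from misanotated medians of -0.30 and 0.08 and all-bin medians of -0.45 and -0.16.

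The sign for set-32 depended on the libraries and the terms. Without both evenly covered libraries its misanotated median was -0.21, against -0.09 over all bins, and with the name prefix as a term -0.09, against -0.04. For met-2 set-25 the misanotated median fell to 0.14 without those libraries, against 0.09 over all bins. It was 0.78 with the prefix term, against 0.35. That term left 2 residual degrees of freedom, and set-32 loss then varied only among libraries that share the prefix of hrde-1.

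The met-2 set-25 calls depended on which libraries entered. Without both evenly covered libraries 0 of the 38 bins passed (limma; 32 of the 502, or 6.37%, were higher at an unadjusted p under 0.05, against 4.09% of all bins), while their log2 change stayed above 0 in 38 of 38, with a median of 0.96. With equal 10th percentiles 0 passed, and 35 of 38 were above 0. These 38 bins were picked as higher in the same data, so the sign of their change cannot check the calls. Over the 502 bins the median change without both evenly covered libraries was 0.14, against 0.09 over all bins. The number of higher misanotated bins was 237 without N2, where 4.88% of all bins passed, and 395 without the hrde-1 triple mutant, where 31.0% of all bins did, so calls rose across the genome in both. It was 18 without the set-32 triple mutant (0.0772% of all bins), 20 when set-32 was left out (0.167%) and 24 when the met-2 set-25 library was (0.186%).

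Single pairs of libraries that differ by 1 loss gave uneven differences. Each is 1 library against 1, in the deposited scaling on which raw directions depend, as above. Some set an evenly covered library against one that is not, so coverage differs there along with the loss. Between libraries with and without met-2 set-25 loss, the median misanotated bin differed by 0.50 on the log2 scale in N2 (0.15 in unmarked bins). The difference was 1.40 where set-32 was already lost (0.70), 1.03 on top of set-32 hrde-1 (0.52) and -0.20 on top of hrde-1 (0.03). For set-32 loss it was -0.43 in N2 (-0.17 in unmarked bins), 0.04 on top of hrde-1 (-0.03) and 0.45 on top of met-2 set-25 (0.19). On top of hrde-1 and met-2 set-25 together it was 1.28 (0.38). For hrde-1 loss it was 0.49 on top of set-32 (0.07 in unmarked bins) and -0.71 on top of met-2 set-25 (-0.18). It was 0.00 in N2 (-0.05) and 0.06 on top of the set-32 triple mutant (-0.02). Interaction terms passed in 0 misanotated bins by limma, against 0.154% of all bins for hrde-1 by set-32, 0.001% for hrde-1 by met-2 set-25 and 0.252% for set-32 by met-2 set-25. At an unadjusted limma p under 0.05 there were 78 misanotated bins for hrde-1 by set-32 (15.5%, against 3.95% of all bins). There were 51 for hrde-1 by met-2 set-25 (10.2%, against 2.43%) and 334 for set-32 by met-2 set-25 (66.5%, against 21.2%). The last product is carried only by the evenly covered libraries, so it cannot be told apart from their evenness of coverage.

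The run with the largest change with met-2 set-25 loss was also the longest, I 10204001 to 10220000. Its mean was 14.3 RPKM for N2, 12.6 for hrde-1, 8.74 for set-32 and 13.7 for set-32 hrde-1. With the loss it was 45.8 RPKM for met-2 set-25, 66.4 for the set-32 triple mutant, 30.3 for the hrde-1 triple mutant and 43.0 for the quadruple mutant. The groups did not overlap, at 46.4 ± 15.0 against 12.3 ± 2.49 RPKM (SD, n = 4 libraries each), and all 16 bins passed. The mean log2 change of these bins was 1.79 ± 0.22 SE (lowest limma adjusted p among them 5.35e-05, 0.114 without both evenly covered libraries and 0.285 with equal 10th percentiles). Bins of the run ranged from 11.4 to 21.0 RPKM in N2 and from 48.7 to 114 for the set-32 triple mutant. The bins on either side, outside the mark, were low in N2, 2.36 and 2.83 RPKM, and higher in the set-32 triple mutant, 13.7 and 8.18.

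The other runs named for met-2 set-25 were shorter and changed less. At I 9821001 to 9823000 the 4 libraries with the loss had 16.1 to 34.8 RPKM and the others 5.93 to 10.4, without overlap, and both bins passed (log2 change 1.44 ± 0.22 SE, limma adjusted p = 0.00106). At IV 17060001 to 17062000 the ranges were 9.81 to 23.4 and 3.54 to 8.62 RPKM (log2 change 1.22 ± 0.25 SE, limma adjusted p = 0.0182), also without overlap. At V 15431001 to 15435000, where 2 of 4 bins passed, they were 5.64 to 15.2 and 2.59 to 5.34 RPKM (log2 change 1.26 ± 0.28 SE, limma adjusted p = 0.0423). At IV 10950001 to 10951000 they overlapped, since the hrde-1 triple mutant read 6.97 RPKM and hrde-1 9.44 (log2 change 1.29 ± 0.29 SE, limma adjusted p = 0.0447). Each of these 4 runs lost its call without both evenly covered libraries and with equal 10th percentiles. The IV 17060001, V 15431001 and IV 10950001 runs also lost it without set-32, with log2 changes of 0.85, 0.88 and 0.95, and without the set-32 triple mutant, with 1.00, 1.11 and 1.22. The V 15431001 and IV 10950001 runs lost it too without met-2 set-25, with 1.19 and 0.96. With a mean of at least 5 RPKM and with quantile normalization, IV 17060001, V 15431001 and IV 10950001 failed as well. The first and second of them also failed with the name prefix as a term. Of 16 alternatives, I 9821001 passed in 14, IV 17060001 in 8, V 15431001 in 7 and IV 10950001 in 6.

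The 1 bin lower with met-2 set-25 loss was II 10875001 to 10876000. It had 31.0 RPKM for hrde-1, 33.6 for set-32 and 30.4 for set-32 hrde-1, but 9.18 in N2. With the loss it had 12.7 RPKM for met-2 set-25, 8.25 for the set-32 triple mutant, 8.94 for the hrde-1 triple mutant and 5.22 for the quadruple mutant. N2 thus lay among the libraries with the loss, and the groups overlapped (log2 change -1.37 ± 0.29 SE, limma adjusted p = 0.0313). The call was lost without hrde-1 (-1.18), without set-32 (-1.12) and without the set-32 triple mutant (-1.36). The 3 high libraries share a name prefix with the quadruple mutant, which was the lowest, and with the prefix as a term the change was -0.96 and did not pass.

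The 10 bins higher with hrde-1 loss were at 5 places, and 3 of these lay within 20 kb of each other on chromosome V. They were 1.99% of the 502. Without both evenly covered libraries 6 passed (1.2%, against 0.848% of all bins), and with equal 10th percentiles 2 did (0.398%, against 0.299%). With the name prefix as a term 2 passed (0.398%), a lower share than the 0.729% of all bins. The bin at II 5097001 to 5098000 had 16.6 RPKM for N2, 8.46 for set-32, 18.6 for met-2 set-25 and 35.9 for the set-32 triple mutant. With the loss it had 64.4 RPKM for hrde-1, 55.0 for set-32 hrde-1, 76.3 for the hrde-1 triple mutant and 59.2 for the quadruple mutant. The groups did not overlap, at 63.7 ± 9.23 against 19.9 ± 11.6 RPKM (SD, n = 4 libraries each; log2 change 1.79 ± 0.25 SE, limma adjusted p = 3.73e-05). It passed in 15 of 16 alternatives, failing only with equal 10th percentiles (limma adjusted p = 0.576), where its log2 change was 1.84.

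On chromosome V, the 6 kb from 18719001 to 18725000 had 7.14 RPKM for N2, 22.9 for set-32, 19.0 for met-2 set-25 and 14.9 for the set-32 triple mutant. With hrde-1 lost it had 29.0 RPKM for hrde-1, 31.9 for set-32 hrde-1, 36.9 for the hrde-1 triple mutant and 66.6 for the quadruple mutant. The groups did not overlap, N2 was lowest, and 5 of the 6 bins passed (log2 change 1.40 ± 0.24 SE, smallest limma adjusted p 0.000194). One of its bins was also among the 38 higher with met-2 set-25 loss. With the name prefix of the libraries as a term the change was 0.74 and did not pass (limma adjusted p = 0.373), nor did it with equal 10th percentiles, where the change was 1.43 (limma adjusted p = 0.970).

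The neighbouring runs were lower in level and similar in order. V 18705001 to 18709000 had 7.78 to 17.7 RPKM with hrde-1 lost and 3.23 to 7.58 without. V 18711001 to 18715000 had 5.34 to 13.7 and 2.17 to 5.17 RPKM. Neither pair of ranges overlapped, and the quadruple mutant was far above the other libraries in both. The calls, of 2 bins and 1 bin, were lost without that library (log2 changes 0.94 and 1.18), and without hrde-1 (0.92 and 1.21). That of V 18705001 was also lost without the set-32 triple mutant (1.06) and that of V 18711001 without set-32 hrde-1 (1.27). Both calls were also lost without both evenly covered libraries (0.97 and 1.29), with the prefix term (0.73 and 1.35) and with a mean of at least 5 RPKM, and that of V 18705001 with quantile normalization (1.19). The single bin between the longer runs, V 18716001 to 18717000, had 0.81 RPKM in N2 and 4.02 to 13.4 in the mutants, and was not called for any of the 3 losses. Farther off, V 18062001 to 18063000 had 16.5 to 25.3 RPKM with hrde-1 lost and 6.60 to 10.8 without (log2 change 1.09 ± 0.20 SE, limma adjusted p = 0.00174), without overlap. With equal 10th percentiles its change was 1.10 and did not pass (limma adjusted p = 1.00).

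The 1 bin called for set-32 was II 504001 to 505000, lower with the loss, and it had the widest range of any run. It read 52.3 RPKM for N2, 15.4 for hrde-1, 117 for met-2 set-25 and 219 for the hrde-1 triple mutant. With set-32 lost it read 6.94 RPKM for set-32, 8.85 for the set-32 triple mutant, 16.4 for set-32 hrde-1 and 5.96 for the quadruple mutant. The groups overlapped at hrde-1 (log2 change -2.81 ± 0.41 SE, limma adjusted p = 0.0261). The 3 high libraries, N2, met-2 set-25 and the hrde-1 triple mutant, share a name prefix that no other library has, and with the prefix as a term the change was -0.37 (limma adjusted p = 1.00). What the prefix stands for is not given, and hrde-1, the remaining library with set-32 intact, has another prefix and was low. With the prefix term, set-32 loss varied only between hrde-1 and the libraries sharing its prefix, so that fit separates loss and prefix poorly. The call was also lost without the set-32 triple mutant (-2.55) and without the hrde-1 triple mutant (-2.20).

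**Figure D5:**
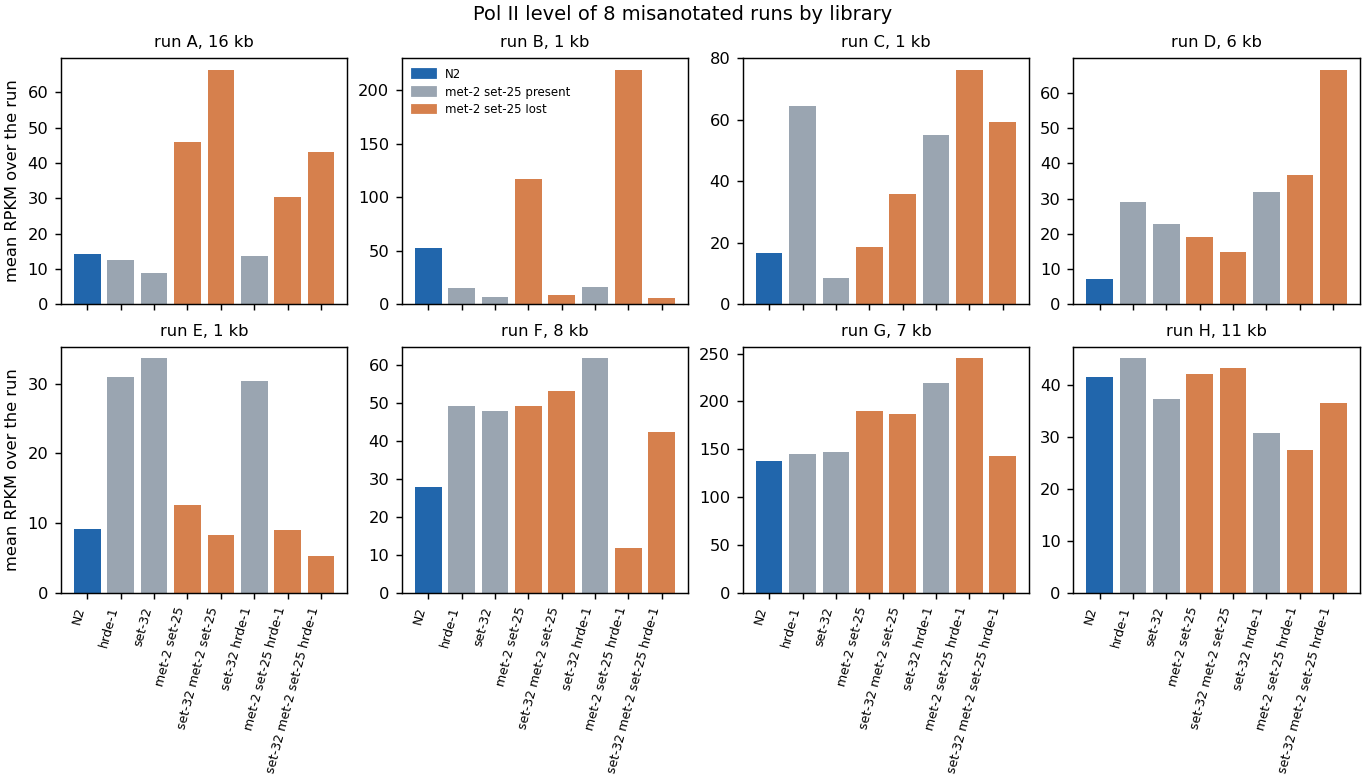
Mean Pol II level in RPKM of 8 misanotated runs in the 8 libraries, 1 bar per library, each panel with its own axis from 0. Runs A to H begin at I 10204001, II 504001, II 5097001, V 18719001, II 10875001, V 7917001, V 17120001 and I 10266001; run A is higher in the 4 libraries without met-2 and set-25 (30.3 to 66.4 RPKM against 8.74 to 14.3), and run F is lowest in the hrde-1 triple mutant (11.9 RPKM) and next in N2 (27.9 RPKM).

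A further group of runs was low in N2 and lower still in the hrde-1 triple mutant, and higher in the other 6 libraries. The longest is the 8 kb at V 7917001 to 7925000, with 27.9 RPKM for N2, 11.9 for the hrde-1 triple mutant, 42.5 for the quadruple mutant, and 47.8 to 61.8 in the other 5. The bin at I 13231001 to 13232000 had 24.9 RPKM for N2, 13.8 for the hrde-1 triple mutant and 50.1 to 89.1 in the others, and X 17311001 to 17312000 had 14.1, 8.05 and 32.6 to 46.0. By limits chosen after the values were seen (below N2 for the hrde-1 triple mutant and at least 1.3 times N2 in the other 6), 9 runs on 5 chromosomes, with 16 bins, showed this. They held 16 of the 357 misanotated bins at 10 RPKM or more in N2, and 21 of 28706 unmarked bins met the limits. In the 9 runs the hrde-1 triple mutant was at 0.38 to 0.60 times N2, and set-32 hrde-1 at 2.17 to 3.67 times. The pattern follows none of the 3 losses. N2 and the hrde-1 triple mutant share the name prefix with met-2 set-25, which was not low.

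Among runs with a mean of at least 2 RPKM, the 4 lowest relative to their reference were II 504001, the first bins of II and X, and V 11274001. The first bin of II had 15.4 RPKM in N2 and 7.49 to 15.6 in the mutants, and the first bin of X 22.4 RPKM in N2 and 6.07 to 23.4 in the mutants. The bin at V 11274001 to 11275000 had 47.9 RPKM in N2 and 14.9 to 32.2 in the mutants, all 7 below N2. The 4 highest relative to their reference were V 18719001, II 5097001, I 13231001 and X 17311001, all described above. Among the runs with the highest N2 level, III 8862001 to 8864000 had 78.0 RPKM for N2. It had 82.8 RPKM for met-2 set-25, 84.7 for the set-32 triple mutant, and 114 to 224 in the other 5. The next lowest run in N2 after V 18716001, V 19429001 to 19430000, had 1.89 RPKM in N2 and 2.88 to 5.55 in the mutants.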

How the data were processed

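The deposited table, made by the authors, holds RPKM values in 1 kb bins with 3 yes-or-no marks. The submitters' processing notes name Bowtie 0.12.7. Build, filters and the handling of reads that fit several places are not stated in the sources used. Of 43 library columns, 8 matched a sample label and 35 were not used. The 3 H3K9me3 libraries were not analysed here. The mutated genes were not checked, since the gene positions at hand are of a build that may differ.

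Runs were formed from neighbouring marked bins. Ratios to N2 used a pseudocount of 1 RPKM, and the reference for a bin was the median of the 201 unmarked bins nearest in N2 level. limma 3.58.1 (R 4.3.3) with an intensity trend was fitted to log2(RPKM + 1) of every bin whose mean reached 2 RPKM. Additive terms stood for the 3 losses (4 residual degrees of freedom), with 1 product (3 degrees) or the name prefix (2 degrees) added in other fits. Tests were two-sided, Benjamini-Hochberg adjusted, with a threshold of 0.05. For a run, change and SE were averaged over the bins that passed. The scripts were tested on simulated data (Python 3.11.15, pandas 2.3.3, numpy 2.4.6, matplotlib 3.10.9). Values were not all whole numbers of reads, so no count model was used.

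Named runs are the 8 longest, the 4 with the highest and lowest N2 level, up to 5 per loss and direction by mean change, and the 4 with the highest and lowest median ratio relative to unmarked bins. Members, lists and alternatives were chosen with earlier results of these data known. Alternatives covered the pseudocount, the filter, scaling, library prefix, the reference and each library left out. No reference sequence was used, and no sequence is shown.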

Additional observations from a re-analysis of the deposited data

Results flagged for a closer look

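In 5 of 30 groups of 4 libraries, 1 library stood far from the other 3 (Dixon's criterion at 95%). Chance gives about 1 such group in 20, and the groups share libraries. The median misanotated bin was 32.1 RPKM in the quadruple mutant, far above the other 3 libraries without hrde-1. The same library stood apart in the mean of V 18705001 to 18709000, at 17.7 RPKM, and of V 18711001 to 18715000, at 13.7 RPKM. Among the 4 libraries with met-2 and set-25 intact, set-32 was far below the rest in the median misanotated bin, at 11.5 RPKM. Among those same 4, N2 was far below the rest at II 10875001 to 10876000, at 9.18 RPKM.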

How the results depend on the processing

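Counts of called bins depended on the processing. With a pseudocount of 0.5 RPKM, met-2 set-25 had 25 higher bins (0.206% of all bins, 38 as reported) and set-32 had 0 lower (0% of all bins, 1 as reported). With a mean of at least 5 RPKM there were 6 higher for hrde-1 (10 as reported), or 1.2% against 1.33% of all bins. For met-2 set-25 there were 17 higher (0.0985% of all bins) and 0 lower (0.0197%), against 38 and 1 as reported. There were 0 lower for set-32 (0% of all bins). Centring gave 20 higher (0.398% of all bins) and 1 lower (5.79% of all bins) for met-2 set-25. It gave 1 for the interaction of set-32 with met-2 set-25 (1.29% of all bins, 0 as reported). Quantile normalization gave 18 higher (0.041% of all bins) and 0 lower (0.006%) for met-2 set-25 and 0 lower for set-32 (0%). The prefix term gave 2 higher for hrde-1 (0.729% of all bins), 22 higher (0.064%) and 0 lower (0.078%) for met-2 set-25 and 0 lower for set-32 (0.002%). Without both evenly covered libraries these were 6, 0, 0 and 0, against 0.848%, 0.013%, 0.00541% and 0% of all bins. Equal 10th percentiles, added after the data were seen, gave 2 higher for hrde-1, 0 higher for met-2 set-25, 0 lower for set-32 and 5 for that interaction, and median raw ratios of 0.44 in set-32, -0.23 in the set-32 triple mutant and 0.0079 in the quadruple mutant. Leaving out each library in turn gave 7 to 10 higher (0.684% to 0.988% of all bins) and 0 to 1 lower (0.023% to 0.435%) for hrde-1, 0 to 1 lower (0% to 0.0569%) for set-32, and 18 to 395 higher (0.0772% to 31.0%) and 0 to 2 lower (0.0294% to 7.47%) for met-2 set-25. The causes were not tested. No named run with a call changed direction under the alternatives run for it. Those runs were picked for their change in the same data, so their direction cannot check the calls. The relative medians moved by less than their spread over bins under the 8 alternatives tried for each. No paired analysis was possible because the labels give no replicate number shared between genotypes. The pairs of libraries in the text differ by 1 loss each and carry no test. Low bins and 1 library per genotype limit the precision.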
